A study of Mus musculus with 14 samples.

Results

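Yy1, Yy2 and Zfp42 (also called Rex1) are the mouse genes of the YY1 family of zinc-finger transcription factors, and they were chosen here by gene name, as 3 of the 54446 gene identifiers in the files. All 3 were among the 18232 genes tested, the filter being an average of 1 or more on the spike-in scale explained below. Their RNA was followed in E14 mouse embryonic stem (ES) cells, kept in serum and LIF without feeder cells, over the hours after mTOR inhibition (mTORi) with INK128, which puts ES cells into a paused, dormancy-like state. The 14 total-RNA libraries formed 7 groups of 2. There were 8 wild-type (WT) libraries, untreated (0 h) or at 24, 72 and 144 h of mTORi, and 6 libraries of Tet1/2 DKO cells at 0, 24 and 72 h. The DKO cells carry Cas9 deletions in Tet1 and Tet2, which encode 5-methylcytosine dioxygenases, and are a line grown from a sorted single cell, so clone and genotype cannot be told apart.

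YY1 is present in nearly every cell type. It binds promoters and enhancers through a tandem array of C2H2 fingers, recruits the INO80 chromatin remodeller, Polycomb proteins, histone deacetylases and acetyltransferases, and has been linked to enhancer-promoter contacts. Yy2 and Zfp42 are retroposed relatives of Yy1 found in placental mammals. Yy2 lies within the Mbtps2 gene on the X chromosome. REX1, the protein of Zfp42, is a standard mark of naive mouse ES cells: it is lost as cells leave that state, and the ubiquitin ligase RLIM (RNF12) sends it for degradation during X inactivation.

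The kinship of the genes is visible in the part of the coding sequence that encodes the fingers. The stretches below are shown because they carry the longest run that Yy1 and Yy2 share, 32 nt, with 30 nt on each side, and the most similar ungapped stretch of Zfp42. Capitals mark the 68 of 92 positions at which all 3 agree. They come from the coding transcripts of GENCODE M21, read 5′ to 3′, at coding positions 1072 to 1163 of Yy1, 964 to 1055 of Yy2 and 694 to 785 of Zfp42.
Yy1: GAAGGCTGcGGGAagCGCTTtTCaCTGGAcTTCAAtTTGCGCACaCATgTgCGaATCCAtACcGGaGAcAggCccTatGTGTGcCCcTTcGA
Yy2: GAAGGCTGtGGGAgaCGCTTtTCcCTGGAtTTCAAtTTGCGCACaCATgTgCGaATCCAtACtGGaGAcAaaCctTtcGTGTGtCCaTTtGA
Zfp42: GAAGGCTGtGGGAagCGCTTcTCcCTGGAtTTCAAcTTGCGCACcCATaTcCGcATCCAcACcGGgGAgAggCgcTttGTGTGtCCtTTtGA
Yy1 matched Yy2 at 78 of these positions and Zfp42 at 75. Similar as they are, the genes share little that could confuse short reads. Of the 25-mers in their transcripts, 25 nt being the shortest read the authors kept, 8 were common to Yy1 and Yy2, and 0 were common to Zfp42 and either of them.

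Yy2 and Zfp42 each share sequence with another gene. Yy2 (ENSMUSG00000091736.3, chrX:157566119-157568985, GRCm38, minus strand) has 1 exon of 2867 nt, and all of it is also annotated as exon of Mbtps2 (ENSMUSG00000046873.18, chrX:157535371-157598715), which runs on the same strand and encodes a membrane protease that activates SREBP factors. Of the 8 transcripts filed under Mbtps2, 2 contain the whole Yy2 transcript, and the coding sequence of 1 of these (ENSMUST00000179062.7) is that of Yy2. Reads from Yy2 can therefore be credited to either gene, and a Yy2 value in these files is a share assigned by the quantifier. Zfp42 (ENSMUSG00000051176.6, chr8:43295063-43306980, minus strand, 5 exons) has a processed pseudogene, Zfp42-ps1 (ENSMUSG00000115993.1, chr15:93679160-93679649), 98.4% identical over its 490 nt and sharing 61.4% of its 25-mers with Zfp42. No gene in the files overlaps Yy1 (ENSMUSG00000021264.12, chr12:108792973-108820148, plus strand, 5 exons), and none overlaps Zfp42.

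The promoters of the 3 genes differ in CpG content and in the letter matches they hold. They are shown because the activators of Zfp42 are compared with it further on. Each run is the RefSeq window (GRCm38.p6) from 250 bases before to 50 after the annotated start, 5′ to 3′ on the strand of the gene: Yy1 at chr12:108793047-108793346, Yy2 at chrX:157568936-157569235 and Zfp42 at chr8:43306960-43307259. Capitals mark matches, on either strand, to the octamer ATTTGCAT bound by OCT4-class factors, the GC box GGGCGG, the ETS core CCGGAA and the CRE-type TGACGT. The letters GCCATNTT of a YY1 site and the E-box CACGTG were also searched and are in none of the 3 windows.
Yy1: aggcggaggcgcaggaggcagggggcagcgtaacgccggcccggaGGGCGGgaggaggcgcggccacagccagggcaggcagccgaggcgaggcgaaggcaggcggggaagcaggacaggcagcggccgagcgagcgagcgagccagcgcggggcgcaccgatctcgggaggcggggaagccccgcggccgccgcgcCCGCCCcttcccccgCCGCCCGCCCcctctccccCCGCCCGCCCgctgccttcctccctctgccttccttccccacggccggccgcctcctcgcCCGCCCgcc
Yy2: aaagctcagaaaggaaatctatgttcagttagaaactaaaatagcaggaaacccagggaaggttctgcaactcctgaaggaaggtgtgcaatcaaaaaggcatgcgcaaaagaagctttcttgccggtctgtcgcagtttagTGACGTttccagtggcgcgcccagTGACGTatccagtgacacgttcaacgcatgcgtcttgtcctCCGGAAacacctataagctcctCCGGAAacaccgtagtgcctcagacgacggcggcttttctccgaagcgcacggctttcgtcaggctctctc
Zfp42: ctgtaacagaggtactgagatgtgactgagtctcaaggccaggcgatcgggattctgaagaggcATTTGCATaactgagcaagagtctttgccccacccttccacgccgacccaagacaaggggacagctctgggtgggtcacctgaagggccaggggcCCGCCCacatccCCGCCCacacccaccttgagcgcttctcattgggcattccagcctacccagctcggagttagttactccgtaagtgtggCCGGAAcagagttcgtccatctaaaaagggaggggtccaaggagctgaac
The Yy1 window is CpG-rich, with 42 CpG and 7 GC boxes, some of them overlapping. A GC box was present in 35.7% of the 32851 RefSeq mouse promoter windows, whose median was 7 CpG. The Yy2 window has 20 CpG, 2 ETS cores (14.9% of windows hold one) and 2 TGACGT matches (7.51% of windows). The Zfp42 window has 11 CpG, 1 octamer (1.74% of windows), 2 GC boxes and 1 ETS core. The YY1 letters were in 6.05% of windows and the E-box in 7.15%. These are matches of letters, with no binding data behind them.

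Levels are given on 2 scales. Deposited TPM, a length-adjusted transcript abundance scaled to a fixed total, is a share of the RNA in a library, so it does not show a change that all genes undergo. Spike-in normalized TPM is the deposited TPM multiplied by 1 factor per library, taken from the authors' ERCC-normalized table, and is relative to the added control RNA. Factors ran from 1 to 1.07 in WT at 144 h and were 2.11 in both WT libraries at 0 h, so any gene that kept its share of the RNA falls by about that factor on the spike-in scale. In bulk RNA, less RNA per cell and fewer cells of a type cannot be told apart. TPM keep no counts, so the depth behind each value is unknown. The DKO label was checked on the targeted genes. Tet2 was at 95.96 to 143 deposited TPM in the WT libraries and at 15.9 to 22.2 in the DKO libraries, and the log2 fold change at 0 h, DKO against WT, was -2.19 (SE 0.13, limma adjusted p = 9.87e-05). Tet1 was still at 147 to 248 deposited TPM in DKO libraries, against 191 to 349 in WT libraries, and its DKO values at 72 h (238 and 248) were above those of untreated WT cells (197 and 191). These gene-level values show the loss of most Tet2 RNA and do not by themselves show the deletion of Tet1. The ES cell markers Pou5f1, Sox2, Nanog, Utf1 and Tdgf1 were abundant, at a summed 2134 to 2849 deposited TPM, and the summed fibroblast markers stayed between 0.153 and 0.720, with Col3a1 at 0 in 7 libraries. The summed primitive endoderm markers ran from 5.27 to 113, highest in the WT libraries at 24 h (60.8 and 113). The summed 2-cell-like markers ran from 7.07 at DKO 24 h to 195 at WT 144 h. In DKO cells they were at 30.5 to 64.9 at 0 h, 7.07 to 13.7 at 24 h and 110 to 175 at 72 h. On the spike-in scale 7 of the 8 tested rose from 24 to 72 h in DKO cells, as did 1.32% of all genes. The summed primed markers were at 159 to 220 in untreated WT cells and at 283 to 308 after 144 h, where 3 of the 4 tested rose on the spike-in scale (0.461% of all genes rose and 50.5% fell), Lef1 by 1.04, Pou3f1 by 0.95 and Otx2 by 0.74, and Dnmt3b fell by 0.83. The part of these cell states in the results below was not tested.

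Zfp42 was the most abundant of the 3 genes, and on deposited TPM the steadiest. Relative to the spike-in, its coefficient of variation over the 14 libraries was 32.4%, against 24.4% for Yy1. In deposited TPM the untreated WT libraries held 579 and 559.7, those at 24 h held 633 and 652, those at 72 h 605 and 555, and those at 144 h 696 and 644. The untreated DKO libraries held 684 and 704 deposited TPM, followed by 662 and 628 (24 h) and by 607 and 619.9 (72 h). The libraries thus differed by at most 1.27-fold from highest to lowest, and Zfp42 ranked between 158 and 211 in every library. Its coefficient of variation on deposited TPM was 7.47%, below that of all but 1.42% of the genes tested, whose median was 26.6%. Among the 259 genes within 2-fold of its mean level, 5.79% varied less. The order of the group means was DKO 0 h, WT 144 h, DKO 24 h, WT 24 h, DKO 72 h, WT 72 h and WT 0 h, and the ranges of adjacent groups overlapped at 4 of the 6 steps.

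Yy1 was at an intermediate level. Untreated WT libraries held 37.1 and 40.3 deposited TPM, those at 24 h held 39.1 and 41.7, those at 72 h 38.5 and 37.8, and those at 144 h 40.3 and 43.6. Untreated DKO libraries held 31.2 and 30.1 deposited TPM, followed by 33.5 and 32.8 (24 h) and by 34.2 in both (72 h). All 6 DKO libraries lay below all 8 WT libraries, and 1.80% of the genes tested were separated by genotype in either direction. The WT groups overlapped their neighbours in the order of means, WT 144 h, WT 24 h, WT 0 h and WT 72 h. The DKO groups followed as 72 h, 24 h and 0 h, with no overlap at any of these last steps. The share of all genes with such gaps at these steps was not computed, so the order is a description. On deposited TPM limma called Yy1 in no comparison between DKO times. In its level Yy1 stood above 74.8% to 82.0% of the genes tested.

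Yy2 was low, and its replicates differed widely. Untreated WT libraries held 3.34 and 2.39 deposited TPM, those at 24 h held 2.76 and 1.76, those at 72 h 1.31 and 3.18, and those at 144 h 0.692 and 1.34. Untreated DKO libraries held 4.21 and 0.259 deposited TPM, followed by 3.35 and 2.44 (24 h) and by 1.24 and 0.663 (72 h). Its coefficient of variation was 58.2%. Every step in the order of its 7 group means lay within overlapping ranges, on both scales. The DKO replicates at 0 h alone spanned the whole range of the series, 2.05 apart on the log2(TPM + 1) scale against a median of 0.18 over the genes tested. Mbtps2, which shares its reads, was at 11.6 to 23.5 deposited TPM, between 4.22 and 87.4 times the Yy2 value, with the largest ratio in the second DKO library at 0 h.

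**Figure D1:**
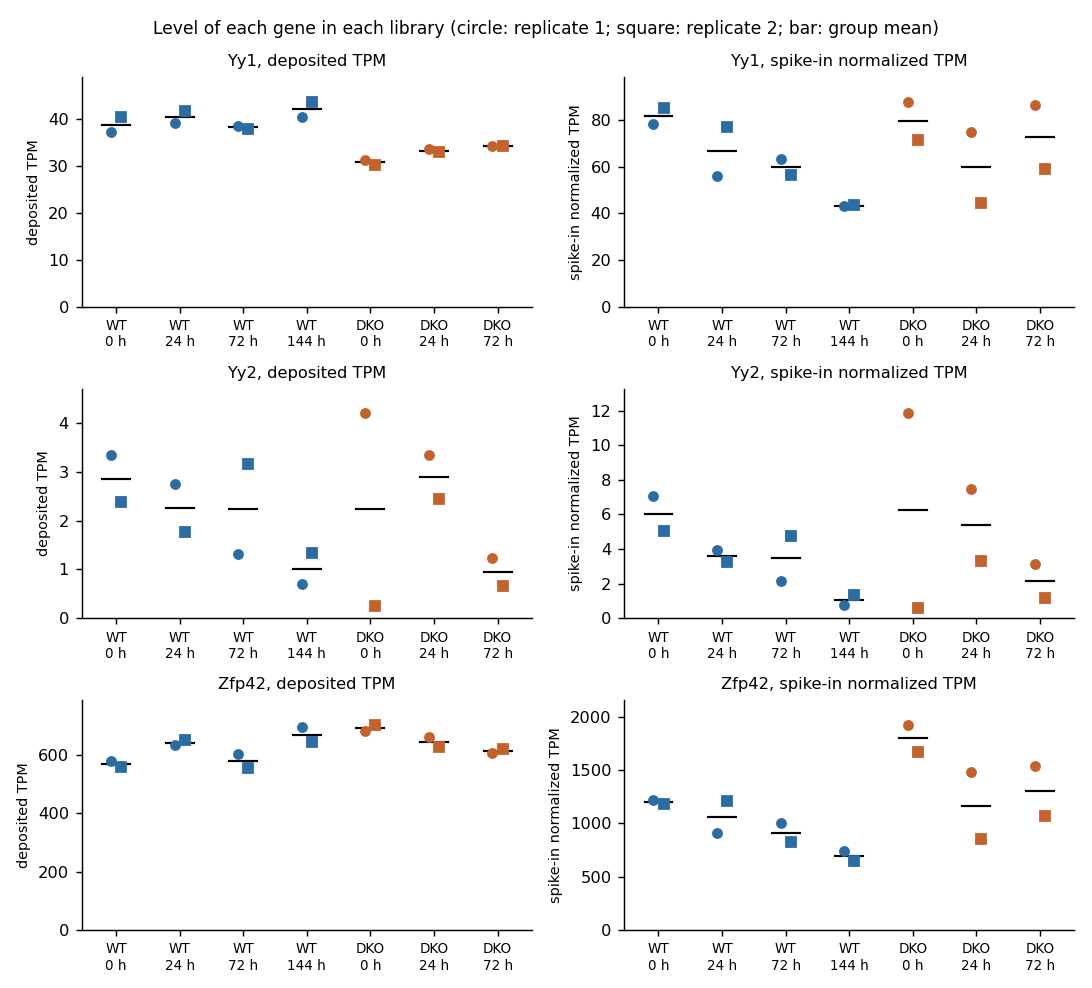
Level of Yy1, Yy2 and Zfp42 in each of the 14 libraries, in deposited TPM (left) and spike-in normalized TPM (right); the x axis gives genotype and hours of mTORi, blue is WT, orange is DKO, and the bar is the mean of 2 libraries. In deposited TPM the Zfp42 points stay between 555 and 704 and the DKO points of Yy1 all lie below the WT points, whereas on the spike-in scale the WT points of all 3 genes are lowest at 144 h.

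The first question was whether pausing changed the genes in WT cells. At 144 h all 3 were lower than at 0 h on the spike-in scale, and the fall of Yy1 and Zfp42 was that of the average gene. Spike-in normalized Yy1 went from 78.3 and 85.1 at 0 h, through 56.1 and 77.3 at 24 h and 63.5 and 56.3 at 72 h, to 43.2 and 43.6 at 144 h. Its log2 fold change at 144 h was -0.90 (SE 0.30, n = 2 and 2, limma adjusted p = 0.0191). Spike-in normalized Zfp42 went from 1223 and 1182, through 908 and 1208 and then 999 and 827, to 745 and 644, a log2 fold change of -0.80 (SE 0.29, limma adjusted p = 0.0306). Yy2 went from 7.05 and 5.04, through 3.95 and 3.26 and then 2.17 and 4.73, to 0.741 and 1.34, a log2 fold change of -1.79 (SE 0.63, limma adjusted p = 0.0241). The 144 h values of each gene lay below both of its 0 h values, as did those of 82.1% of the genes tested.

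These 3 calls stood against a background of 50.5% of all genes called lower, and the median of all genes was itself -0.83, so Yy1 and Zfp42 lay at the 44.8th and 52.8th percentiles of the log2 fold changes and Yy2 at the 4.85th. On deposited TPM, where the common fall is absent, the log2 fold changes were 0.11 for Yy1 (95% interval -0.06 to 0.29, limma adjusted p = 0.316), 0.23 for Zfp42 (0.04 to 0.42, 0.0683) and -0.95 for Yy2 (-2.14 to 0.25, 0.219), against an all-gene median of 0.05. None was called, with 27.3% of genes called. With the replicate number as a block within each genotype, Zfp42 was called higher on deposited TPM (limma adjusted p = 0.0450, 35.5% of genes called). Leaving out any 1 of the 4 libraries lost some or all of the 3 calls on the spike-in scale. Such fits also called fewer of all genes. Their log2 fold changes stayed between -0.96 and -0.84 for Yy1, -0.90 and -0.69 for Zfp42, and -2.00 and -1.58 for Yy2. With no filter on low values 0 of the 3 were called, at limma adjusted p-values of 0.0528, 0.0957 and 0.188 for Yy1, Zfp42 and Yy2. That fit called 7220 of the 38890 genes it tested, against 9287 of 18232 in the main fit.

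At the earlier times no member was called on either scale. On the spike-in scale the log2 fold changes at 24 h were -0.31 for Yy1, -0.60 for Yy2 and -0.20 for Zfp42, with 9.98% of genes called and an all-gene median of -0.33. At 72 h they were -0.44, -0.71 and -0.40 in the same order, with 8.29% called and a median of -0.33. Leaving out 1 library moved Yy1 at 24 h between -0.53 and -0.08, and Yy2 at 72 h between -1.14 and -0.28. On deposited TPM the 95% intervals for Yy1 and Zfp42 were -0.12 to 0.24 and -0.02 to 0.36 at 24 h (29.9% of genes called), and -0.20 to 0.16 and -0.16 to 0.22 at 72 h (24.0%). Between 24 and 72 h in WT cells 0.987% of genes were called on the spike-in scale and 11.0% on deposited TPM, and between 72 and 144 h 0.395% and 0.357%, and 0 of the 3 genes were among them. A fit of only the 72 and 144 h WT libraries called Yy1 and Yy2 lower on the spike-in scale, along with 50.3% of all genes.

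In DKO cells the same comparison gave no call either, and Zfp42 came nearest to one. Spike-in normalized Zfp42 was at 1926 and 1672 in untreated cells, then 1479 and 852 (24 h), then 1536 and 1071 (72 h). At 24 h its log2 fold change was -0.68 (SE 0.29, limma adjusted p = 0.109, 19.2% of genes called), and with the replicate block within the genotype it was called (adjusted p = 0.0258), as were 40.0% of genes. On deposited TPM the change was -0.11 (95% interval -0.30 to 0.08, 24.9% of genes called). At 72 h the spike-in change was -0.48 (adjusted p = 0.379, 3.66% called) and the deposited one -0.18 (adjusted p = 0.146, 26.3% called). Spike-in normalized Yy1 was at 87.9 and 71.6, then 74.9 and 44.5, then 86.6 and 59.1, with log2 fold changes of -0.45 at 24 h and -0.15 at 72 h and limma adjusted p-values of 0.297 and 0.837. Without replicate 1 at 24 h, Yy1 (-0.82, adjusted p = 0.0302) and Zfp42 (-1.07, adjusted p = 0.00735) were called lower than at 0 h, in a fit that called 48.0% of genes and had an all-gene median of -0.85. The DKO replicates stood apart on this scale across the transcriptome: at 24 h they differed by 0.74 for Yy1 and 0.80 for Zfp42 on the log2 scale, against a median of 0.72 over all genes. Yy2 cannot be placed in DKO cells, because its direction depended on which untreated library was used. Spike-in normalized Yy2 was at 11.8 and 0.616, then 7.49 and 3.32, then 3.15 and 1.15, and its log2 fold change at 24 h was 0.41 (SE 0.63), or 1.91 without replicate 1 at 0 h (adjusted p = 0.0325, 4.43% of genes called) and -1.09 without replicate 2. At 72 h it was -0.61, or 0.89 without replicate 1 at 0 h and -2.11 without replicate 2 (adjusted p = 0.0372, 1.11% of genes called). Between 24 and 72 h, with 1.42% of genes called on the spike-in scale and 5.96% on deposited TPM, 0 of the 3 genes were called.

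The next question was whether the family differed between the cells labelled Tet1/2 DKO and WT cells. At single times 0 of the 3 genes were called. On deposited TPM the Yy1 log2 fold change, DKO against WT, was -0.32 at 0 h (95% interval -0.50 to -0.15, limma adjusted p = 0.105), -0.28 at 24 h (-0.45 to -0.10, 0.127) and -0.15 at 72 h (-0.33 to 0.02, 0.306), with 0.598%, 1.37% and 4.01% of genes called. These shares rested on every library: 109, 250 and 732 genes were called with all of them, and 1 to 12, 29 to 52 and 7 to 61 without any 1 of the 4 libraries compared. That of Zfp42 was 0.29 at 0 h (0.10 to 0.48, 0.166), 0.00 at 24 h (-0.19 to 0.19, 0.989) and 0.08 at 72 h (-0.11 to 0.27, 0.646). On the spike-in scale Yy1 gave -0.04, -0.19 and 0.25 and Zfp42 0.58, 0.10 and 0.50, where the all-gene medians were 0.29, 0.10 and 0.49 and 0.0439%, 0.0439% and 0.329% of genes were called. For Yy2 the deposited values were -0.58 (-1.78 to 0.61), 0.27 (-0.93 to 1.46) and -0.69 (-1.88 to 0.51), intervals that leave either direction possible.

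Every DKO library had less Yy1 than every WT library in deposited TPM, a pattern seen in 0.592% of the genes tested. In either direction 1.80% of genes were separated by genotype, and 2.39% against the 6 WT libraries at 0, 24 and 72 h. Averaged over the 3 times, a comparison chosen because of that pattern and so given without a test, the log2 fold change of Yy1 was -0.25 on deposited TPM and between -0.27 and -0.23 without any 1 of the 12 libraries. On the spike-in scale it was 0.01, where the all-gene median was 0.29, against 0.04 on deposited TPM. On that scale the DKO and WT libraries overlapped. No test at a single time called Yy1 on either scale. Zfp42 averaged 0.12 on deposited TPM and 0.39 on the spike-in scale.

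**Figure D2:**
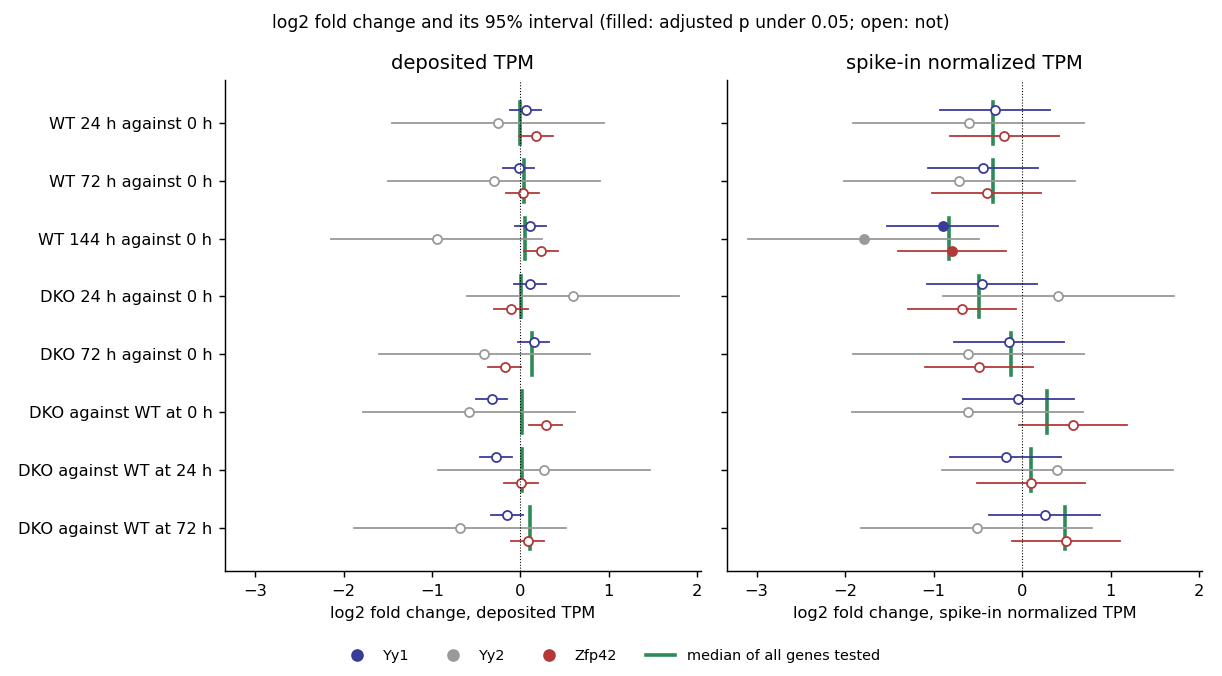
The log2 fold change of Yy1, Yy2 and Zfp42 with its 95% interval in 8 comparisons, on deposited TPM (left) and spike-in normalized TPM (right); green bars give the median of the 18232 genes tested, and filled points have an adjusted p under 0.05. The filled points are the 3 genes at WT 144 h on the spike-in scale, where Yy1 (-0.90) and Zfp42 (-0.80) sit beside the all-gene median (-0.83).

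The response to mTORi was compared between the genotypes directly. On the spike-in scale 0.00548% of genes were called for a difference in response at 24 h and 0.0% at 72 h, and on deposited TPM 0.0% at both, by limma. At an unadjusted p under 0.05 there were 223 and 181 genes on the spike-in scale and 706 and 676 on deposited TPM. The difference between the responses at 24 h, DKO minus WT, was -0.28 for Zfp42 on deposited TPM (95% interval -0.55 to -0.01, limma adjusted p = 0.9995), 0.048 for Yy1 (-0.20 to 0.30, 0.9995) and 0.85 for Yy2 (-0.84 to 2.54, 0.9995). At 24 h on the spike-in scale it was -0.48 for Zfp42 (-1.34 to 0.39), -0.14 for Yy1 (-1.03 to 0.74) and 1.01 for Yy2 (-0.84 to 2.86). None of these was called, and the intervals leave sizeable differences possible. At 72 h it was -0.20 for Zfp42 (-0.47 to 0.064), 0.17 for Yy1 (-0.076 to 0.42) and -0.10 for Yy2 (-1.80 to 1.59) on deposited TPM. The spike-in values at 72 h were -0.082 for Zfp42 (-0.95 to 0.78), 0.30 for Yy1 (-0.59 to 1.18) and 0.099 for Yy2 (-1.75 to 1.95).

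The ratio of Zfp42 to Yy1 contains the genotype pattern of Yy1 given above and is no separate finding. Zfp42 had 15.6 and 13.9 times the deposited TPM of Yy1 in the WT libraries at 0 h and between 14.7 and 17.3 times in the other WT libraries. In DKO cells the ratio was 21.9 and 23.4 without mTORi, then 19.7 and 19.1 (24 h), then 17.7 and 18.1 (72 h). Every DKO library was above every WT library, and the DKO values at 72 h were nearest to WT. The ratio of Yy1 to Yy2 overlapped between the genotypes. It ran from 11.1 to 58.2 in WT libraries (median 20.3) and from 7.42 to 116 in DKO libraries (median 20.5), and in WT cells it was 11.1 and 16.9 without mTORi and 58.2 and 32.6 after 144 h. These ratios are descriptions, without a test. Across the 14 libraries the deposited levels of the 3 genes followed no common course, with Pearson r of -0.32 for Zfp42 and Yy1, -0.37 for Zfp42 and Yy2, and 0.02 for Yy1 and Yy2 on the log2(TPM + 1) scale, over libraries that share group and composition.

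The pseudogene Zfp42-ps1 was at 123 to 159 deposited TPM, and Zfp42 was between 3.83 and 5.51 times as high. Its level, like that of Zfp42, was close to constant in share: at WT 144 h its log2 fold change was 0.03 on deposited TPM and -0.99 on the spike-in scale (SE 0.32, limma adjusted p = 0.0152). How the quantifier divided reads between the pair is not known. Adding its reads back to Zfp42 by length would leave the WT 144 h change at 0.22 on deposited TPM and -0.81 on the spike-in scale.

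**Figure D3:**
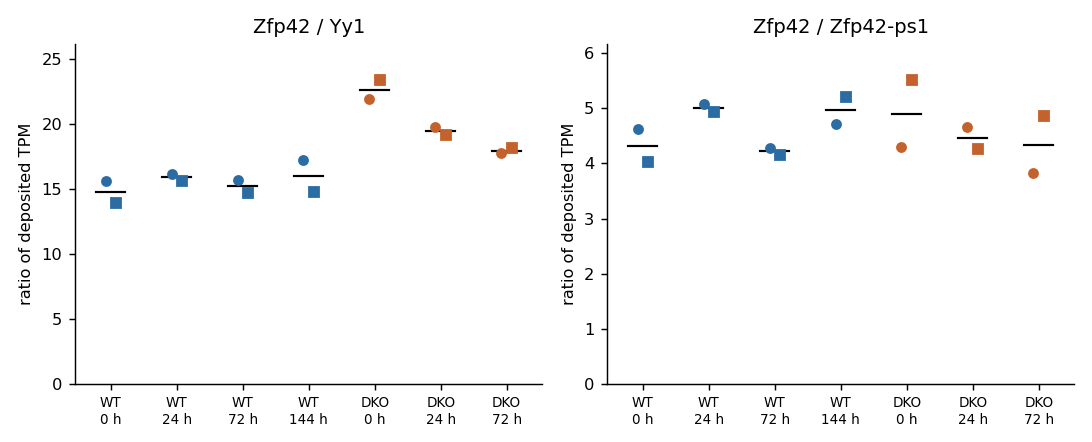
Ratio of the deposited TPM of Zfp42 to Yy1 (left) and of Zfp42 to its pseudogene Zfp42-ps1 (right) in each library; the x axis gives genotype and hours of mTORi, circles and squares are replicates 1 and 2, blue is WT, orange is DKO, and the bar is the mean. The Zfp42 to Yy1 ratio is 17.3 at most in WT libraries and 17.7 at least in DKO libraries, while the ratio to the pseudogene overlaps between the genotypes.

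Factors known to activate Zfp42 were called in both directions on deposited TPM, on which Zfp42 was called only with the replicate block, as given above. Of 6 such genes (Pou5f1, Sox2, Nanog, Klf2, Klf4 and Esrrb), 2 rose and 1 fell on that scale at WT 144 h, where 15.6% of all genes rose and 11.7% fell. Klf4, a reprogramming factor of the naive network, was at 66.4 to 71.5 deposited TPM in untreated WT cells and at 178 to 185 after 144 h, with a log2 fold change of 1.39 (SE 0.19, limma adjusted p = 0.000944). Sox2 rose by 0.64 (adjusted p = 0.00222). Nanog went from 322 to 344 deposited TPM down to 207 to 230 and fell by 0.61 on the log2 scale (adjusted p = 0.0416). Pou5f1, which encodes OCT4, was at 0.01 (adjusted p = 0.975). Zfp42 itself was at 0.23, as given above, and the median of the 6 was 0.30.

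Some of the 6 were also called earlier. On deposited TPM at WT 24 h Klf4 (log2 fold change 1.45), Esrrb (0.58) and Sox2 (0.56) rose and 0 fell, where 15.8% of all genes rose and 14.1% fell. At WT 72 h Klf4 (1.14) and Sox2 (0.36) rose and Nanog (-0.87) fell, beside 12.6% and 11.4% of all genes. In DKO cells at 24 h Klf4 (0.84), Esrrb (0.46) and Sox2 (0.37) rose and 0 fell, beside 11.6% and 13.3%. At DKO 72 h Klf4 rose by 0.78, and Klf2 and Nanog fell by 0.91 and 0.85, beside 17.2% of all genes rising and 9.06% falling. On the spike-in scale 3 of the 6 fell at WT 144 h, as Zfp42 did and as 50.5% of all genes did, Nanog by 1.63, Pou5f1 by 1.02 and Klf2 by 0.82, and the median of the 6 was -0.72 against -0.83 for all genes. Klf4 was at 0.37 on that scale and was not called (adjusted p = 0.403). Between the genotypes 0 of the 6 were called at 0, 24 and 72 h on either scale, where at most 4.01% (deposited TPM) and 0.329% (spike-in) of all genes were.

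**Figure D4:**
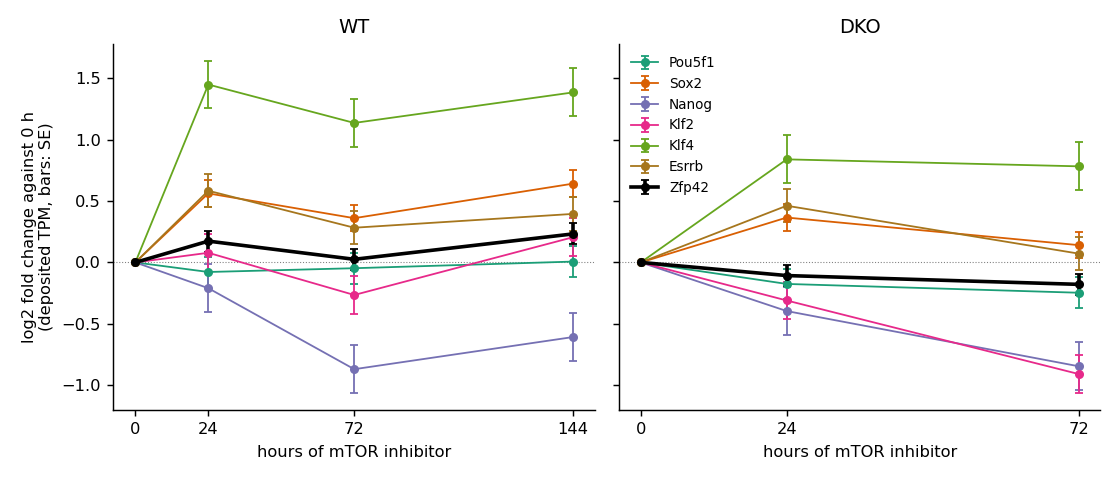
The log2 fold change against 0 h (deposited TPM, bars are SE) of Zfp42, in black, and of 6 genes known to activate it, over hours of mTORi in WT (left) and DKO (right) cells. Zfp42 stays between -0.18 and 0.23 in both panels, Klf4 reaches 1.45, and Nanog falls to -0.87 in WT and -0.85 in DKO cells at 72 h.

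INO80, the remodeller that works with YY1, has 14 subunit genes in the list. At WT 144 h on the spike-in scale 13 of the 14 fell, where 50.5% of all genes did, with a median of -1.15 against -0.83 for all genes. The largest falls were those of Ino80e (-1.90, SE 0.26), the deubiquitinase Uchl5 (-1.66, SE 0.30), the AAA+ ATPase Ruvbl1 (-1.60, SE 0.27) and the actin-related Actl6a (-1.57, SE 0.28). On deposited TPM 5 fell, 1 rose and 8 were not called, where 11.7% of all genes fell and 15.6% rose, and the median was -0.14 against 0.05. The same 4 led, with Ino80e at -0.87, Uchl5 at -0.64, Ruvbl1 at -0.57 and Actl6a at -0.55 (limma adjusted p between 0.00189 and 0.00896). The subunit that rose was Actr5 (0.47, adjusted p = 0.0215), named after its value was seen.

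Falls were present from 24 h. On deposited TPM 6 of the 14 fell at WT 24 h (14.1% of all genes fell and 15.8% rose) and 6 at WT 72 h (11.4% and 12.6%). In DKO cells 6 fell and 1 rose at 24 h (13.3% of all genes fell and 11.6% rose), and 5 fell and 2 rose at 72 h (9.06% and 17.2%). Ino80d rose at 24 h (0.85, limma adjusted p = 0.00762), more than any subunit fell, and at 72 h (0.78, adjusted p = 0.0127). Actl6a, Ino80e, Ruvbl1 and Uchl5 were called lower in all 5 of these comparisons with 0 h. Between the genotypes on deposited TPM 0 of the 14 were called at 0 and 24 h, where 0.598% and 1.37% of all genes were. At 72 h, where 4.01% of all genes were called and far fewer without any 1 library, Actl6a was lower (-0.59, adjusted p = 0.0245) and Uchl5 higher (0.49, adjusted p = 0.0342) in DKO cells. On the spike-in scale, where at most 0.329% of all genes were called between the genotypes, 0 of the 14 were, a count that says little about these genes. RUVBL1 and ACTL6A also serve in other remodelling complexes, so these RNAs are not particular to INO80.

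Of 16 other genes for YY1 partners, 12 fell at WT 144 h on the spike-in scale, where 50.5% of all genes did, with a median of -0.99 against -0.83 for all genes. Sfmbt2, whose protein is a partner of YY1 in a Polycomb complex and which is imprinted in mouse, stood out. It was at 30.3 to 84.9 deposited TPM in WT cells at 0 h, 7.22 to 9.43 at 72 h and 3.91 to 4.97 at 144 h. Its log2 fold change at 144 h was -3.26 on deposited TPM (SE 0.47, limma adjusted p = 0.00112) and -4.28 on the spike-in scale (SE 0.51, adjusted p = 1.68e-05). In DKO cells it was at 29.9 to 57.8 at 0 h and 6.39 to 7.96 at 72 h. The other partners that fell most on the spike-in scale were L3mbtl2 (-1.38), Hdac1 (-1.31) and Sap30 (-1.14). On deposited TPM, where 15.6% of all genes rose and 11.7% fell, 2 of the 16 rose, the chromatin reader Mbtd1 (0.74, adjusted p = 0.00439) and the acetyltransferase Ep300 (0.38, adjusted p = 0.00792), Sfmbt2 was the 1 that fell, and the median of the list was 0.02. Genotype calls on deposited TPM, made for 0.598%, 1.37% and 4.01% of all genes at 0, 24 and 72 h and for far fewer without any 1 library, were few. Gon4l was lower in DKO cells at 0 h (-0.43, adjusted p = 0.0445) and 24 h (-0.36, adjusted p = 0.0483) and Yaf2 was higher at 72 h (0.76, adjusted p = 0.0340), and on the spike-in scale 0 of the 16 were called, beside at most 0.329% of all genes.

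YY1 is also known to act with PGC1 coactivators on mitochondrial genes downstream of mTOR. Of 10 genes of that axis, 9 were tested, and Ppargc1a itself was at 0.031 deposited TPM at most and at 0 in 6 libraries. At WT 144 h on the spike-in scale 7 of the 9 fell, against 50.5% of all genes, with a median of -1.02 against -0.83, led by cytochrome c, Cycs (-1.80), and by Gabpa (-1.09), Nrf1 (-1.04) and Tfam (-1.03). On deposited TPM the calls were near the shares of all genes, 11.7% falling and 15.6% rising: Cycs fell (-0.78, adjusted p = 0.000979), the nuclear receptor gene Esrra rose (0.46, adjusted p = 0.0183), and the median was -0.02. Between the genotypes on deposited TPM, where 0.598%, 1.37% and 4.01% of all genes were called at 0, 24 and 72 h and few of them without any 1 library, Esrra was higher in DKO cells at 0 h (0.67, adjusted p = 0.0456) and 72 h (0.52, adjusted p = 0.0439). Ppargc1b was higher at 24 h (0.82, adjusted p = 0.0419) and Cycs at 72 h (0.60, adjusted p = 0.0225). Relative to the spike-in, 0 of the 9 were called between the genotypes, beside at most 0.329% of all genes.

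At loci that YY1 and REX1 are known to regulate, the share of genes called at WT 144 h on the spike-in scale was near the 50.5% of all genes. Of 5 genes of the X-inactivation centre 2 fell, Tsix (-1.13, limma adjusted p = 0.0107) and Rlim (-0.93, adjusted p = 0.0480), the latter encoding the ligase that degrades REX1, and 0 were called on deposited TPM, where Rlim was at 0.09. Tsix rose in DKO cells at 72 h on deposited TPM (0.65, adjusted p = 0.0466), where 17.2% of all genes rose. Tsix overlaps Xist on the opposite strand, and whether the counting used strand is not stated in the sources used here, so their reads may not be separated. Of 4 imprinted genes (Peg3, Usp29, Gnas and Nespas) 3 fell on the spike-in scale, Usp29 by 1.59, Peg3 by 1.14 and Gnas by 0.75. On deposited TPM, where 15.6% of all genes rose and 11.7% fell, Nespas rose (0.82, adjusted p = 0.0337) and Usp29 fell (-0.77, adjusted p = 0.0400). Nespas was also called higher on deposited TPM at WT 72 h (1.06) and at DKO 24 h (0.78) and 72 h (1.16), where 12.6%, 11.6% and 17.2% of all genes rose. It is likewise antisense to the Gnas locus. Between the genotypes 0 of these 9 genes were called at 0, 24 and 72 h on either scale, where at most 4.01% (deposited TPM) and 0.329% (spike-in) of all genes were.

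**Figure D5:**
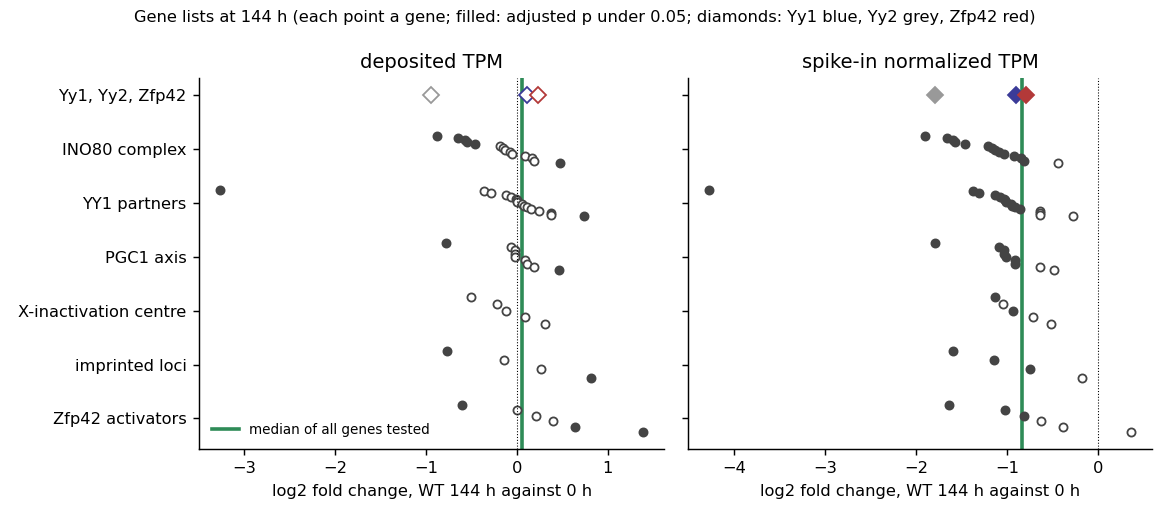
The log2 fold change at WT 144 h against 0 h of each tested gene in 6 lists and of Yy1, Yy2 and Zfp42 (diamonds), on deposited TPM (left) and spike-in normalized TPM (right); filled symbols have an adjusted p under 0.05 and the green line is the median of all genes tested. The INO80 subunits lie mostly left of the line on both scales, Sfmbt2 is the far-left point among YY1 partners (-3.26 and -4.28), and Yy1 and Zfp42 lie close to the line.

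Genes next to the family members were looked at as well. At WT 144 h on deposited TPM the nearest genes above 1 TPM were at 0.14 and 0.57 beside Yy1 (Gm34220 and Slc25a47), and at 0.43 and 0.15 beside Zfp42 (Triml2 and Fat1), none of them called. Beside Yy2, the polyamine enzyme gene Sms fell by 1.02 (limma adjusted p = 0.0177), Cnksr2, at about 1 TPM, rose by 0.50 (adjusted p = 0.0247), and the overlapping Mbtps2 was at -0.34 (adjusted p = 0.213), where 11.7% of all genes fell and 15.6% rose. Relative to the spike-in, Mbtps2 fell by 1.34 (adjusted p = 0.00472) beside the 1.79 of Yy2.

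The genes whose deposited levels most resembled each member across the 14 libraries were found by Pearson r over 17192 genes, as a description. For Yy1 they were 4933434E20Rik (r = 0.94), the splicing factor Srsf11 (0.93) and the zinc-finger gene Pogz (0.93), where 1% of genes had an r above 0.78. For Zfp42 they were the histone genes Hist1h4i (0.86) and Hist1h2bg (0.77) and Card19 (0.81). For Yy2 they were Gm8543 (0.82), Gm1826 (0.79) and Hyal1 (0.77), all low, at 0.196 to 3.69 TPM. Points in these correlations share genotype, time and library composition.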

How the data were processed

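Total RNA with ERCC spike-in was sequenced after ribosomal RNA depletion, 2 libraries per group. The authors trimmed reads, aligned them to mm10 and estimated gene abundances with the GENCODE VM19 annotation, and the deposited values are TPM (transcripts per 1000000). The submitters' processing notes name cutadapt 2.4, STAR 2.7.3a, StringTie 2.0 and mm10. Whether counting used strand is not given in the sources used here. TPM keep no counts, so depth and counting error are unknown.

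Spike-in normalized TPM was the deposited TPM times a factor per library, the median ratio of the entries of the authors' ERCC-normalized supplementary table to the deposited values (factors 1 to 2.81). The authors tested counts with DESeq2, whereas here log2(TPM + 1) was fitted with limma 3.58.1 (R 4.3.3), all groups sharing an estimate of the spread, over 18232 genes with a mean of at least 1, with Benjamini-Hochberg adjustment in each comparison and a threshold of 0.05. The spike-in scale was the main one. The test code was also run on simulated data, and no result of that run is used here. Sequences were compared with Biopython 1.88 and figures drawn with matplotlib 3.10.9 (Python 3.11.15, pandas 2.3.3). The study describes its replicates as biological and its experiments as independently repeated. The sample labels give only a replicate number, so p-values are read as the spread between these libraries.

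Replicate numbers were checked as pairs: the study processed the time points of each replicate in parallel, and the deviations of same-numbered libraries correlated above 0.1 in 3 of 3 DKO pairs (0.222 to 0.341) and 5 of 6 WT pairs (0.0622 to 0.398), but below 0 in 10 of 12 pairs between genotypes (-0.501 to 0.116). Alternatives were deposited TPM, another pseudocount, filters, a replicate block, only the groups compared, and leaving out each library. The text names the 3 genes, overlapping and nearest genes, the 3 most alike genes, and Tet1 and Tet2. From the lists it names mostly called genes among the 4 largest changes of a comparison, and not in every comparison. The members and lists were chosen with earlier results of these data known, and gene lists are described without set tests.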

Additional observations from a re-analysis of the deposited data

How the results depend on the processing

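With 2 libraries per group and no read counts, small differences could not be resolved, and Yy2 least of all. The fold changes of Yy1 and Zfp42 in WT cells depended on the scale: on deposited TPM in place of the spike-in scale they turned to 0.061 (Yy1) and 0.17 (Zfp42) at 24 h, 0.025 (Zfp42) at 72 h, 0.11 (Yy1) and 0.23 (Zfp42) at 144 h, and 0.13 (Yy1) and 0.21 (Zfp42) from 72 to 144 h. In DKO cells they turned to 0.11 (Yy1) at 24 h, 0.15 (Yy1) at 72 h and -0.072 (Zfp42) from 24 to 72 h. Between genotypes Yy1 turned to -0.15 at 72 h and to -0.25 over the 3 times, and the differences between responses to 0.048 (Yy1, 24 h) and -0.10 (Yy2, 72 h). The 2 scales differ by the factor per library.

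At WT 144 h against 0 h the count of called genes of the family fell from 3 to 0 on deposited TPM, where 27.3% of all genes were called. It fell to 0 as well with no filter on low values, where 7220 of 38890 genes were called. Without each library the count was also lower, in fits that called fewer of all genes. From 72 to 144 h it was 2 (Yy1 and Yy2) in a fit of only the groups compared, which called 50.3% of all genes against 0.395%, and the cause was not tested. Without each library the count was not constant at DKO 24 h and 72 h on either scale. On the spike-in scale the number of all genes called moved as well. With the replicate number as a block within each genotype the count was 1 at DKO 24 h on the spike-in scale, beside 40.0% of all genes. It was 1 at WT 144 h on deposited TPM, beside 35.5%. Zfp42 was the gene in both, and the block changed no other call of the 3 genes. The block and the single-library omissions on deposited TPM, and the average over times, were chosen after seeing the data.

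Leaving out each library in turn, log2 fold changes on the spike-in scale that crossed 0 were -0.40 to 0.0068 for Zfp42 (WT 24 h against 0 h), -0.53 to 0.32 for Yy2, -0.36 to 0.091 for Yy1, -0.41 to 0.0022 for Zfp42 (WT 72 h against 24 h), -1.09 to 1.91 for Yy2 (DKO 24 h against 0 h). They were also -2.11 to 0.89 for Yy2, -0.42 to 0.12 for Yy1 (DKO 72 h against 0 h), -0.065 to 0.67 for Yy1, -0.21 to 0.59 for Zfp42 (DKO 72 h against 24 h), -0.19 to 0.11 for Yy1, -2.11 to 0.88 for Yy2 (DKO against WT at 0 h). They were also -0.30 to 0.50 for Zfp42, -0.55 to 0.18 for Yy1, -0.091 to 0.89 for Yy2 (DKO against WT at 24 h), -0.017 to 0.53 for Yy1 (DKO against WT at 72 h), -0.51 to 0.22 for Yy1, -0.48 to 2.51 for Yy2 (DKO minus WT response at 24 h). They were also -1.40 to 1.59 for Yy2, -0.34 to 0.18 for Zfp42 (DKO minus WT response at 72 h), -0.11 to 0.13 for Yy1, -0.74 to 0.25 for Yy2 (DKO against WT over 0, 24 and 72 h). Leaving out each library in turn, log2 fold changes on deposited TPM that crossed 0 were -0.079 to 0.037 for Yy1, -0.73 to 0.12 for Yy2, -0.036 to 0.087 for Zfp42 (WT 72 h against 0 h), -0.48 to 0.38 for Yy2 (WT 72 h against 24 h), -0.43 to 1.62 for Yy2 (DKO 24 h against 0 h). They were also -1.43 to 0.62 for Yy2 (DKO 72 h against 0 h), -1.61 to 0.44 for Yy2 (DKO against WT at 0 h), -0.034 to 0.043 for Zfp42 (DKO against WT at 24 h). They were also -0.010 to 0.11 for Yy1, -0.18 to 1.87 for Yy2 (DKO minus WT response at 24 h), -1.13 to 0.92 for Yy2 (DKO minus WT response at 72 h), -0.68 to 0.0070 for Yy2 (DKO against WT over 0, 24 and 72 h).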
